A study of Homo sapiens with 3 samples.

Results

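The genes of the mitochondrial ribosomal proteins were followed across 3 populations of cells grown out of H1, an established line of human embryonic stem cells. Members were all genes whose symbol consists of MRPL or MRPS, a number and at most 1 closing letter, and 78 of the 18345 genes with a value met this rule. Of the 78, 49 carried MRPL names and 29 MRPS names. All 78 stood at or above 1 FPKM in all 3 libraries, so no member was lost to the filter on low values. FPKM is a count of sequenced fragments divided by the length of the transcript and by the depth of the library. The cells had been differentiated with 40 ng/ml activin A and 50 ng/ml BMP4 for 2 days, then 40 ng/ml VEGF and 50 ng/ml bFGF for 3 days, and are labelled as day 4. The labels call them HEPs. All 3 populations were positive for CD31 and CD34 and differed in surface CD105, which was absent in CD105neg, low in CD105low and high in CD105high. Each population gave 1 library, so there is no spread between replicates, no test, and every difference is one between single libraries. All cells come from 1 cell line, and the labels do not say how many differentiations were pooled.

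Mitochondria carry their own ribosome, which is built from rRNAs encoded by mitochondrial DNA and from proteins that are all encoded in the nucleus, made in the cytosol and imported. It has a large and a small subunit, and its only products in human cells are the core subunits of the respiratory chain and ATP synthase that mitochondrial DNA encodes. Some of its proteins have relatives in the ribosomes of all organisms, some only in bacteria, and others occur only in mitochondria. Symbols and subunits differ in places: MRPS30 and MRPS18A are proteins of the large subunit in the human structure, and MRPS36 is now counted as a part of the 2-oxoglutarate dehydrogenase complex. With these assignments the members comprised 51 large-subunit genes, 26 small-subunit genes and MRPS36.

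ENG, which encodes CD105, followed the order of the sort, with 2.12, 8.56 and 13.8 FPKM in CD105neg, CD105low and CD105high. The value column of the CD105neg library is headed as CD105 positive, and its group was taken from the labels of the sample. The 6 endothelial markers (PECAM1, CD34, CDH5, KDR, TEK and TIE1) were present in every library, at a summed level of 700.1, 1053 and 1184 FPKM in CD105neg, CD105low and CD105high. All values of a library summed to 289229, 284824 and 265618 FPKM in the same order. The spacing of the lowest values put the depth of CD105low at 1.10 and that of CD105high at 1.05 times that of CD105neg, if the values are FPKM. The number of reads per library is not known here, so no counting interval is given. All fold changes below are log2 ratios of the value plus 1 FPKM, set against all 11343 genes that reached 1 FPKM in any library. The median of all these genes was -0.09 (CD105high over CD105neg), 0.02 (CD105low over CD105neg) and -0.10 (CD105high over CD105low).

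The members were expressed at moderate and fairly even levels. The median over the members was 22.4, 19.6 and 17.3 FPKM in CD105neg, CD105low and CD105high. In CD105neg, 65 of the 78 lay between 10 and 50 FPKM, and the highest member stood 13.1 times above the lowest. The most abundant was MRPL51, a mitochondria-specific protein of the large subunit, with 77.01, 70.5 and 58.6 FPKM in CD105neg, CD105low and CD105high. Its value is uncertain, since 18.2% of its sampled sequence is shared and 31.3% of its exon bases overlap NCAPD2 on the other strand. NCAPD2 stood at 42.3, 40.5 and 38.7 FPKM in the same order. MRPL33, a bacterial-type large-subunit protein, followed with 73.2, 60.5 and 51.9 FPKM in the same order, and 21.1% of its exon bases overlap BABAM2 on the same strand. MRPL52, MRPS21, MRPL20 and MRPL28 completed the 6 most abundant, with MRPS21 at 48.5, 45.7 and 40.7 FPKM as the highest of the small subunit. The 6 lowest were MRPL46, MRPL45, MRPL49, MRPL4, MRPS2 and MRPL2. MRPL46 stood at 6.25, 5.20 and 3.93 FPKM, and MRPL45, which anchors the large subunit to the inner membrane, at 5.89, 5.63 and 4.26 FPKM. FPKM is scaled by transcript length, so these levels can be set side by side, apart from reads of shared or overlapping sequence. MRPL51 was the highest member in each library.

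**Figure D1:**
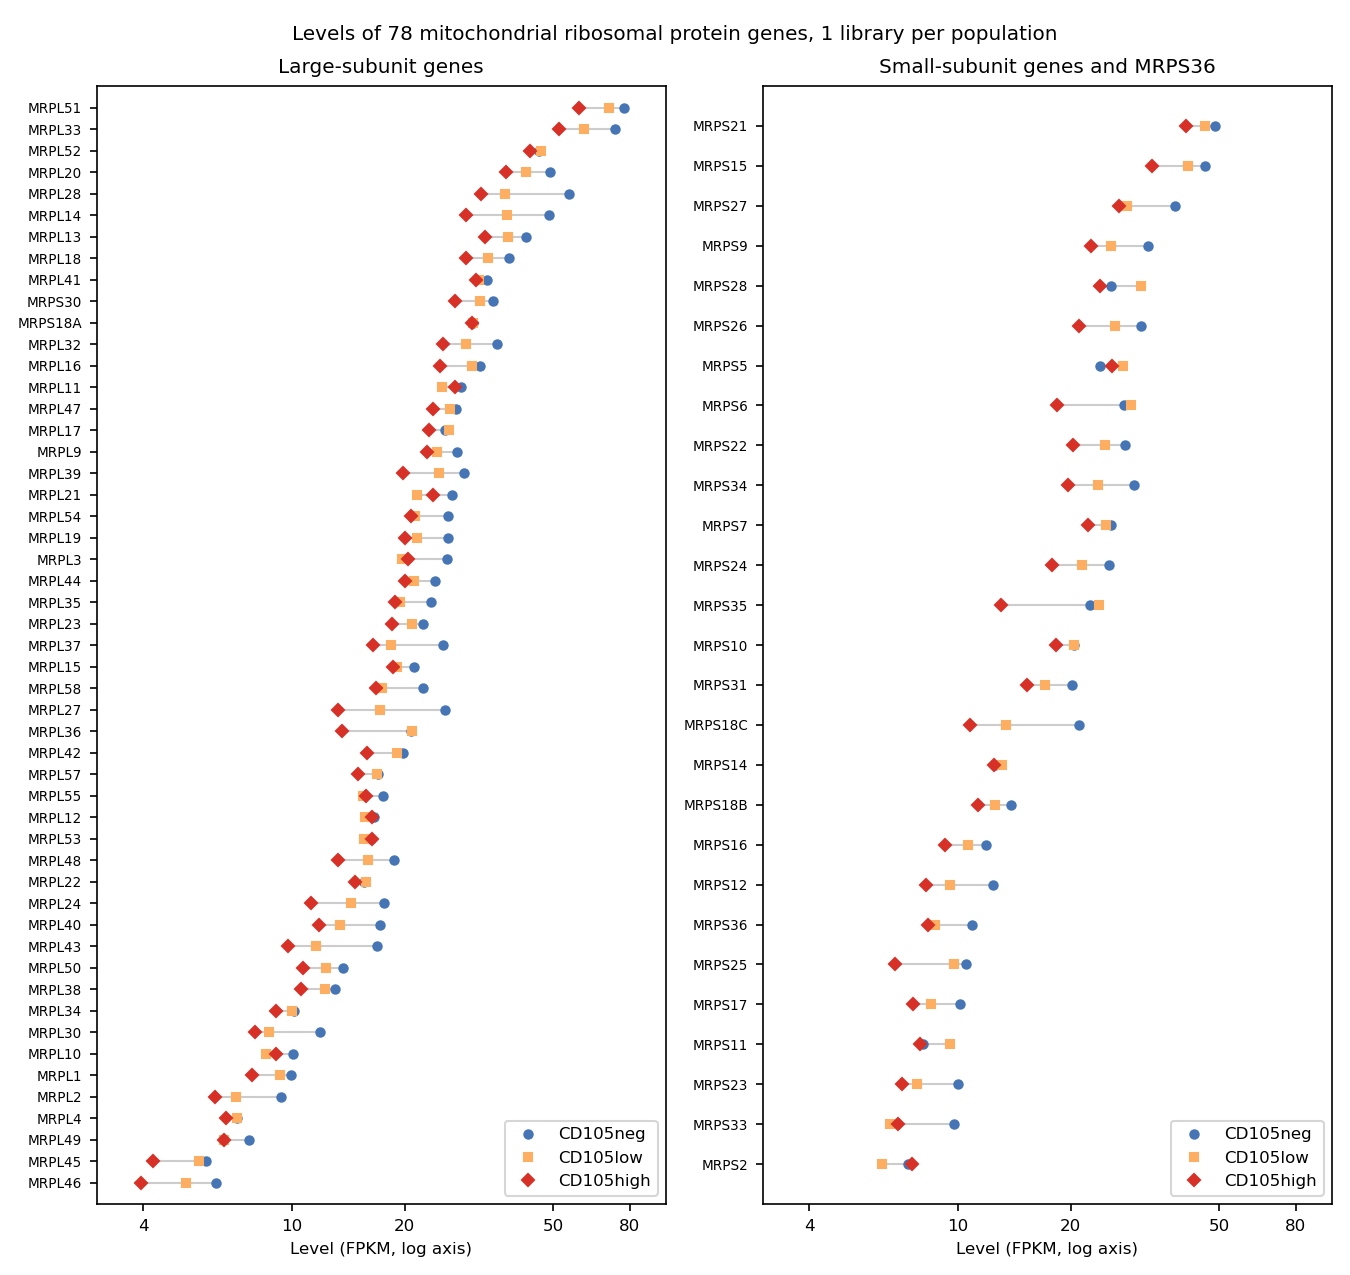
Level of each of the 78 members in FPKM on a log axis, with large-subunit genes on the left and small-subunit genes with MRPS36 on the right, sorted by mean level. Each symbol is the single library of a population and the grey line joins the lowest to the highest value. In 58 members the order is CD105neg, CD105low, CD105high, from high to low.

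Together the members summed to 1457 in CD105high against 1883 FPKM in CD105neg, a ratio of 0.774, with CD105low at 1658 FPKM. As a share of all values this was 0.651% in CD105neg, 0.582% in CD105low and 0.549% in CD105high. The values of all genes together stood at a ratio of 0.918 between CD105high and CD105neg. In cell populations such as these, fewer cells that express a gene and less RNA per cell cannot be told apart.

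Nearly all members were lower in CD105high than in CD105neg, each by a modest amount. Their log2 fold changes ran from -0.91 to 0.11 with a median of -0.35, against -0.09 for all genes tested. Of the 78 members, 75 lay below 0, as did 61.0% of all genes tested. At least 1.5-fold lower were 8 of 78 members (10.3%), against 6.88% of all genes tested, and no member was at least 1.5-fold higher, against 5.65% of all genes. At a smaller limit, 44 of 78 (56.4%) had a log2 fold change at or below -0.32, against 22.8% of all genes. After centring both on the median of all genes, 29 of 78 (37.2%) reached this limit, against 15.3% of all genes. The members thus differed by many small steps in 1 direction. In 28 members, 10% or more of the sampled sequence is shared with another gene or 10% or more of the exon bases overlap one on either strand. Among the other 50, 49 lay below 0, 6 were at least 1.5-fold lower, and the median was -0.35.

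**Figure D2:**
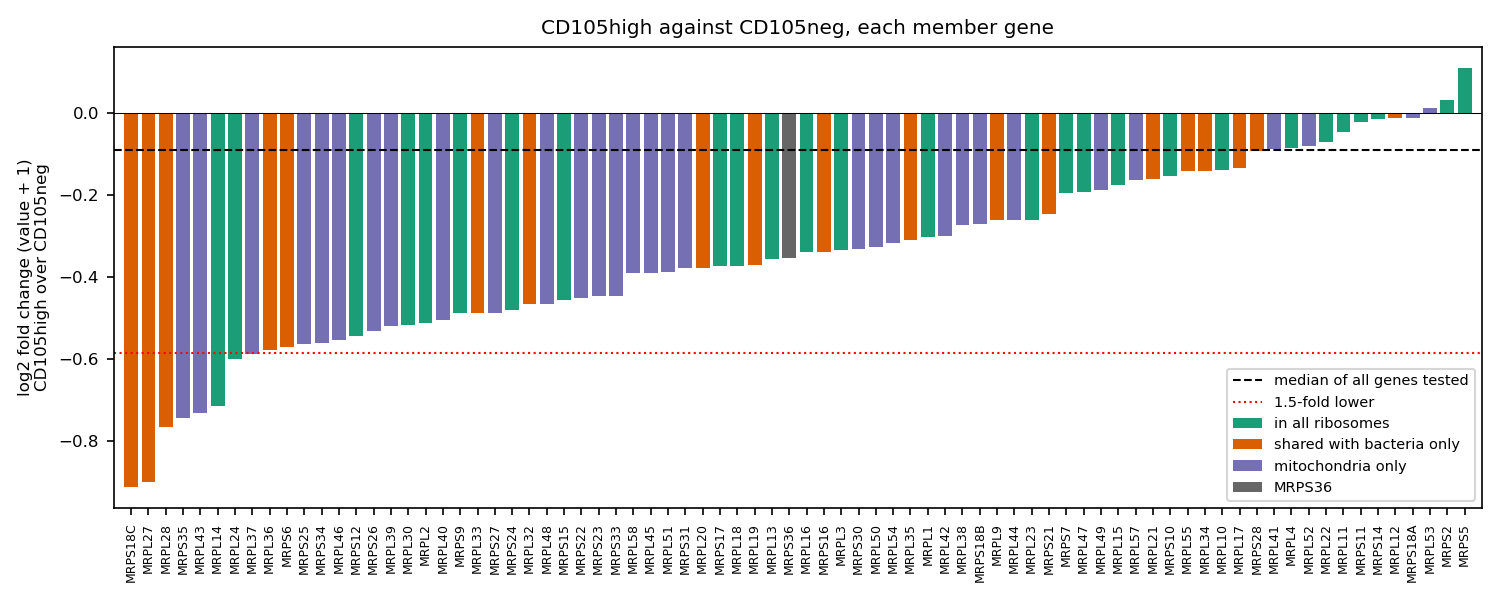
Log2 fold change (value + 1) of CD105high over CD105neg for each of the 78 members, ordered from lowest to highest and coloured by the distribution of the protein among ribosomes. The dashed line is the median of all genes tested (-0.09) and the dotted line marks 1.5-fold lower, which 8 members pass.

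The lowest log2 fold change was that of MRPS18C (ENSG00000163319.10), a bacterial-type protein of the small subunit, which stood at 10.7 in CD105high against 21.1 FPKM in CD105neg (-0.91), with CD105low between them at 13.5 FPKM. Its value is uncertain: 37.8% of its sampled sequence also occurs in other genes, and 40.2% of its exon bases overlap ABRAXAS1 on the other strand. ABRAXAS1 itself stood at 11.8 in CD105high against 10.8 FPKM in CD105neg. MRPL27 (ENSG00000108826.15), which lies close to the peptidyl transferase centre, stood at 13.3 in CD105high against 25.7 FPKM in CD105neg (-0.90), with 17.1 FPKM in CD105low. No sampled sequence of MRPL27 was shared with another gene.

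MRPL28, another bacterial-type protein, stood at 31.97 in CD105high against 55.1 FPKM in CD105neg (-0.77). MRPL14, a universal protein at the interface of the subunits, stood at 29.2 in CD105high against 48.5 FPKM in CD105neg (-0.72). MRPS35, a mitochondria-specific protein of the small subunit, stood at 13.01 in CD105high against 22.5 FPKM in CD105neg (-0.75). In MRPL28 and MRPL14 the CD105low library lay between the others, at 37.2 and 37.6 FPKM, and in MRPS35 it lay above both, at 23.8 FPKM. MRPL43 stood at 9.77 in CD105high against 16.9 FPKM in CD105neg (-0.73), with 11.6 FPKM in CD105low and 17.2% of its sampled sequence shared. MRPL24, which sits near the exit of the nascent chain, stood at 11.3 in CD105high against 17.6 FPKM in CD105neg (-0.60), with 14.4 FPKM in CD105low. MRPL37, a mitochondria-specific protein, stood at 16.5 in CD105high against 25.3 FPKM in CD105neg, with 18.4 FPKM in CD105low, and completes the 8. MRPL37 lies at -0.59, just past that limit, while MRPL36, at -0.58, lies just short of it.

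At the other end, MRPS5 (ENSG00000144029.11), a universal protein at the entry of the mRNA channel, stood at 25.8 in CD105high against 23.9 FPKM in CD105neg (0.11). MRPS2 stood at 7.53 in CD105high against 7.35 FPKM in CD105neg (0.03). MRPL53 stood at 16.4 in CD105high against 16.2 FPKM in CD105neg (0.01). These 3 were the only members above 0. MRPS18A, MRPL12, MRPS14, MRPS11 and MRPL11 lay between -0.05 and -0.01. MRPL12, a protein of the stalk that recruits translation factors, stood at 16.4 in CD105high against 16.5 FPKM in CD105neg. MRPL11, at the base of the same stalk, stood at 27.3 in CD105high against 28.3 FPKM in CD105neg. Of the sampled sequence, 64.0% of MRPL12, 56.5% of MRPS18A and 67.7% of MRPL53 also occurs in other genes, so those values are uncertain. The same holds for 12.6% of MRPS2 and 20.5% of MRPS11. On the other strand, 14.4% of the exon bases of MRPS2 and 13.5% of those of MRPS14 overlap other genes. With each library scaled to a sum of 1000000, the median of all genes moved to 0.02 and 65 of the 78 members lay below 0, and relative to all genes the members' median was -0.26 on either scale.

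The 3 genes of the MRPS18 family, the set of related copies among the members, differed in the size of the difference. MRPS18C and MRPS18B had descending values from CD105neg through CD105low to CD105high, while MRPS18A was nearly level. MRPS18C had the lowest log2 fold change of all members. MRPS18B, a mitochondria-specific protein of the small subunit, stood at 11.3 in CD105high against 13.9 FPKM in CD105neg (-0.27). MRPS18A, the copy that sits in the large subunit, stood at 30.2 in CD105high against 30.5 FPKM in CD105neg (-0.01), with 30.5 FPKM in CD105low. With 1 library each, and shared sequence in MRPS18A and MRPS18C, the difference between the copies has no replicate check.

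Since nearly all members lay on the same side, the promoters were read for motifs known from genes of mitochondrial proteins. RefSeq promoters, which run from 250 bases before to 50 bases after the start of a gene, were matched for 69 of the 78 members (build GRCh38.p14). Each motif was searched on both strands. The ETS core and the YY1-type letters can run into each other over their shared AAG, and they did so in 0 of the 69 promoters. The ETS core CCGGAAG was found in 29 of 69 member promoters (42.0%), against 10.7% of all 27305 promoters and 19.3% of the 8852 promoters of genes tested here. The letters AAGATGGCG, a YY1-type element that can also hold a start codon, were found in 13 member promoters (18.8%), against 1.85% of all promoters and 4.12% of those of genes tested. The NRF1 palindrome (GCGC, any base, TGCGC) was found in 8 (11.6%), against 6.28% of all and 12% of those of genes tested. Of the 69, 26 held none of the 3. The median log2 fold change of CD105high against CD105neg was -0.39 for members with the ETS core and -0.32 for those without it. It was -0.30 and -0.38 with and without the YY1-type letters, and -0.47 and -0.34 with and without the NRF1 palindrome. A match is a description of letters and not a bound site. Of the promoters below, MRPS18C and MRPL27 belong to the 2 lowest members. MRPL14 and MRPL36 show the NRF1 palindrome and, in MRPL36, the YY1-type letters. MRPS5, the highest member, holds none of the 3. Among promoters not printed, those of MRPS35, MRPL24 and MRPL37, which were called lower, hold none either. Those of MRPL53 (0.01) and MRPS18A (-0.01) hold the ETS core. Whether a motif goes with the fold change was not tested. Capitals mark the motifs, and each sequence runs 5′ to 3′ on the strand of its gene.
MRPS18C, chr4:83455808-83456107, plus strand: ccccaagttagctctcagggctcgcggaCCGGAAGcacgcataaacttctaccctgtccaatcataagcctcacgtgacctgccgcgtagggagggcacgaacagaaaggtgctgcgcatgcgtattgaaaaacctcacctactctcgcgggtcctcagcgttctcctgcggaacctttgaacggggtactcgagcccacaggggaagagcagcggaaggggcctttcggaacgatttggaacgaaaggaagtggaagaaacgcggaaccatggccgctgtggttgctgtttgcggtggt
MRPL27, chr17:50373135-50373434, minus strand: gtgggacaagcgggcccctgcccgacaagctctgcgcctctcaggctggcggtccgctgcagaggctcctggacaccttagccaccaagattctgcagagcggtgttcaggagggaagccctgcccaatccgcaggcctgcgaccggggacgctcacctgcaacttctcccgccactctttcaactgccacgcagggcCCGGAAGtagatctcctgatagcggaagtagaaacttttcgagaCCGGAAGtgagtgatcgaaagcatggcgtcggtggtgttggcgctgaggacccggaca
MRPL14, chr6:44127259-44127558, minus strand: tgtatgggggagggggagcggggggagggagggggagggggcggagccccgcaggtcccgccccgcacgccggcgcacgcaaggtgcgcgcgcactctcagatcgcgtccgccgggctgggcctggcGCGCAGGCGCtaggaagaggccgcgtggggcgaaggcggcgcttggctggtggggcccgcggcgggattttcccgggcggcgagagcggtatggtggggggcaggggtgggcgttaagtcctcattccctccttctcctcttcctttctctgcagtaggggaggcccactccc
MRPL36, chr5:1799788-1800087, minus strand: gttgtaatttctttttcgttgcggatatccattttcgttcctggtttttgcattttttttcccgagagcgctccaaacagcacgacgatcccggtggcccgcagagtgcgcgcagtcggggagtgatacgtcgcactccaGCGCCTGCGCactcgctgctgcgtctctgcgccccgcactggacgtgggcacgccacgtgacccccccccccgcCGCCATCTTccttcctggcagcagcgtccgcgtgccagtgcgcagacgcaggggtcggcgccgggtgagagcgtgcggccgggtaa
MRPS5, chr2:95121759-95122058, minus strand: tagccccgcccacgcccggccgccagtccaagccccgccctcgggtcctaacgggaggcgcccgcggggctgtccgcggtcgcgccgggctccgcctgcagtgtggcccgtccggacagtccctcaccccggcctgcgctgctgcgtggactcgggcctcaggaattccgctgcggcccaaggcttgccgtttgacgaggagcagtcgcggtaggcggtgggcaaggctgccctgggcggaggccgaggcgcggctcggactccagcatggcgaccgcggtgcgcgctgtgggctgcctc

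Both subunits were lower in CD105high. For CD105high against CD105neg, the median log2 fold change was -0.33 for the 51 large-subunit genes and -0.45 for the 26 small-subunit genes. Of these, 50 and 24 lay below 0, as did 61.0% of all genes tested. Below the median of all genes (-0.09) lay 43 and 22 of them. With 1 library each, the difference between the subunits was not tested. The summed level of the large subunit was 1014 in CD105high against 1300.2 FPKM in CD105neg, a ratio of 0.780. That of the small subunit was 435 in CD105high against 572 FPKM in CD105neg, a ratio of 0.760. By distribution among ribosomes, the medians were -0.30 for the 27 universal, -0.34 for the 19 bacterial-type and -0.39 for the 31 mitochondria-specific genes. The bacterial-type genes all lay below 0 (19 of 19), as did the 16 universal genes of the large subunit. So did the 10 mitochondria-specific genes of the small subunit, between -0.75 and -0.27, with a median of -0.47. Below the median of all genes lay 18 of those 19, 13 of those 16 and all of those 10. The 11 universal proteins of the small subunit had a median of -0.19, and MRPS5 and MRPS2 are 2 of them. MRPS12, a universal protein of the decoding centre, stood at 8.18 in CD105high against 12.4 FPKM in CD105neg (-0.55). MRPL44, a large-subunit protein with a ribonuclease fold, stood at 20.01 in CD105high against 24.2 FPKM in CD105neg (-0.26), and MRPS30 stood at 27.2 in CD105high against 34.5 FPKM in CD105neg (-0.33). MRPS36, which is not a ribosomal protein by present assignment, stood at 8.31 in CD105high against 10.9 FPKM in CD105neg (-0.35), close to the median of the members.

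Across the members, the log2 fold change of CD105high against CD105neg had a Spearman correlation of -0.03 with mean level and 0.06 with transcript length (n = 78 genes, which share the same libraries). Over all genes tested with a length the value for length was 0.09. In bands of equal size by transcript length, the median of all genes was -0.11 in the shortest, -0.12 in the middle and -0.04 in the longest band, and that of the members was -0.36, -0.37 and -0.17. The bands held 33, 38 and 7 members. Among the 7197 genes whose mean level lay within the range of the members, the median was -0.08.

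CD105low was also lower than CD105neg in most members, by less. The median log2 fold change of CD105low against CD105neg was -0.17, against 0.02 for all genes tested, and 68 of 78 members lay below 0, as did 47.3% of all genes. At least 1.5-fold lower was 1 of 78 members, MRPS18C at 13.5 in CD105low against 21.1 FPKM in CD105neg, against 2.18% of all genes tested. None was at least 1.5-fold higher, against 4.13% of all genes. At or below -0.32 were 15 of 78 (19.2%), against 9.50% of all genes. The 4 lowest were MRPS18C, MRPL27, MRPL28 and MRPS33. MRPS33 stood at 6.57 in CD105low against 9.77 FPKM in CD105neg (-0.51), and its CD105high value of 6.90 FPKM lay next to that of CD105low. MRPS28 was the highest, at 30.9 in CD105low against 25.6 FPKM in CD105neg (0.26), followed by MRPS11 (9.53 FPKM in CD105low, 8.04 FPKM in CD105neg), MRPS5 (27.6 FPKM in CD105low, 23.9 FPKM in CD105neg) and MRPS35 (0.08). MRPS28 and MRPS11 share 45.7% and 20.5% of their sampled sequence with other genes. The CD105neg library is shared with the comparison of CD105high.

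CD105high against CD105low showed a similar step on the deposited scale and little relative to all genes. The median log2 fold change of the members was -0.16, against -0.10 for all genes tested. Of the 78 members, 68 lay below 0, as did 71.5% of all genes, and 53 lay below the median of all genes. At least 1.5-fold lower were 3 of 78 (3.85%), against 2.19% of all genes, and none was higher, against 1.18%. At or below -0.32 were 10 (12.8%), against 11.2%, and after centring 4 (5.13%), against 5.62%. The shares of called members are thus near the background in this comparison. The 3 called were MRPS35, MRPS6 and MRPL36, whose CD105low and CD105neg values lay next to each other. MRPS35 stood at 13.01 in CD105high against 23.8 FPKM in CD105low (-0.82), MRPS6 at 18.4 in CD105high against 28.96 FPKM in CD105low (-0.63) and MRPL36 at 13.6 in CD105high against 20.9 FPKM in CD105low (-0.59). In CD105neg, MRPS6 stood at 27.8 FPKM and MRPL36 at 20.8 FPKM. MRPS25 (-0.47) came next. MRPS2 (0.24), MRPL21 (0.13), MRPL11 (0.12) and MRPL10 (0.08), a protein that holds the stalk, had the highest log2 fold changes of CD105high against CD105low.

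**Figure D3:**
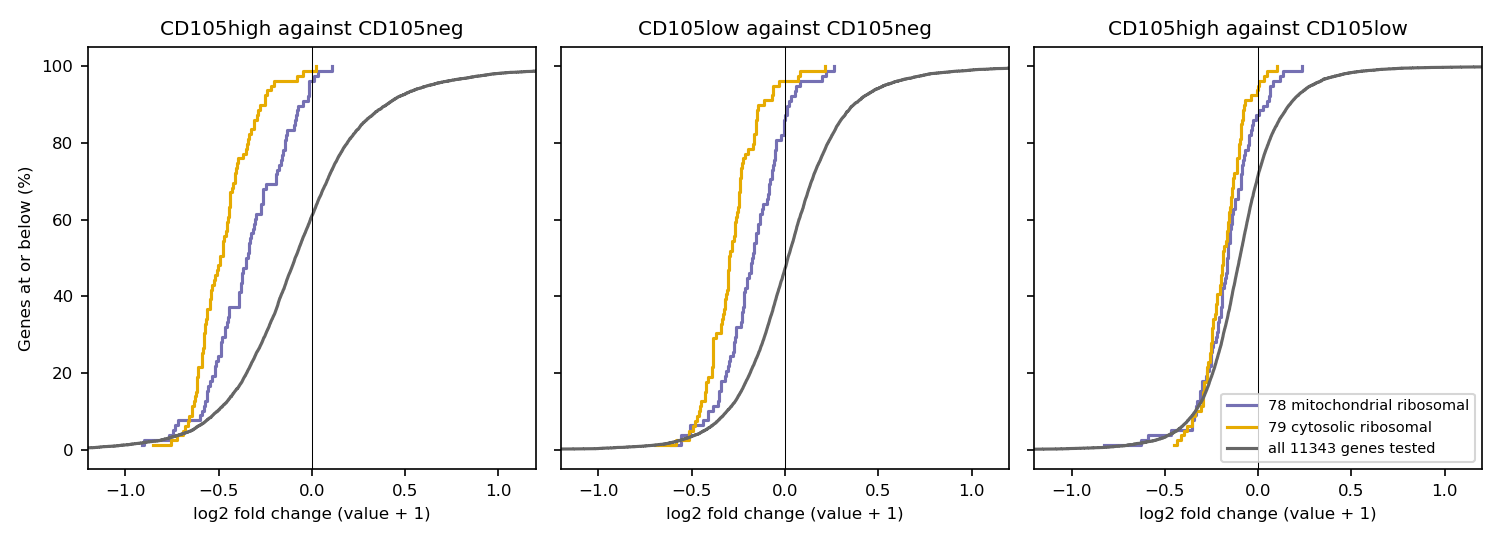
Cumulative share of genes by log2 fold change (value + 1) for each pair of libraries, for the 78 members, the 79 cytosolic ribosomal protein genes and all 11343 genes tested. The curve of the members lies left of that of all genes in the comparisons with CD105neg (medians -0.35 and -0.17, against -0.09 and 0.02) and close to it for CD105high against CD105low (-0.16 against -0.10).

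Read over the 3 libraries, 58 of 78 members (74.4%) were ordered from CD105neg through CD105low to CD105high in descending values, an order that 36.4% of all genes tested showed. None of the members had the opposite order, which 17.6% of all genes had. CD105low was the highest library in 10 members and the lowest in 10, against 35.1% and 10.9% of all genes. CD105high was the lowest library for 67 members and CD105neg the highest for 66. The shares of all genes for these counts were not computed. On the deposited scale, 71.5% of all genes were lower in CD105high than in CD105low, and 61.0% were lower than in CD105neg.

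Of the 78 members, 29 had a protein-coding neighbour on the other strand whose start lies within 1000 bases, by GENCODE release 29, so that both genes may be read from 1 promoter region. The neighbour reached 1 FPKM in 24 cases, of which 2 are the pair MRPS11 and MRPL46. Of the 22 neighbours that are not members, 20 lay below 0 for CD105high against CD105neg, as did 61.0% of all genes, with a median of -0.31, beside a median of -0.38 for their members. Called were 1 lower and 1 higher of 22, near the shares of all genes (6.88% and 5.65%). The lower one was EME1, a subunit of a DNA repair nuclease next to MRPL27, at 6.78 in CD105high against 10.7 FPKM in CD105neg (-0.59). The higher one was SLC7A7, an amino acid transporter gene next to MRPL52, at 6.53 in CD105high against 2.91 FPKM in CD105neg (0.94), while MRPL52 lay at -0.08. Some neighbours serve mitochondria themselves, and others, such as PSMA2, have other roles. SARS2, the mitochondrial seryl-tRNA synthetase next to MRPS12, stood at 6.87 in CD105high against 10.6 FPKM in CD105neg (-0.56), beside -0.55 for MRPS12. The genes overlap, and 72.3% of the sampled sequence of SARS2 is shared. NDUFB5, a complex I subunit gene next to MRPL47, lay at -0.53 beside -0.19 for MRPL47. NDUFS6 next to MRPL36 lay at -0.07, beside -0.58. PSMA2, a proteasome subunit gene next to MRPL32, lay at -0.47, next to MRPL32 at -0.47. MRPS11 and MRPL46, which encode proteins of different subunits and start next to each other, lay at -0.02 and -0.55.

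**Figure D4:**
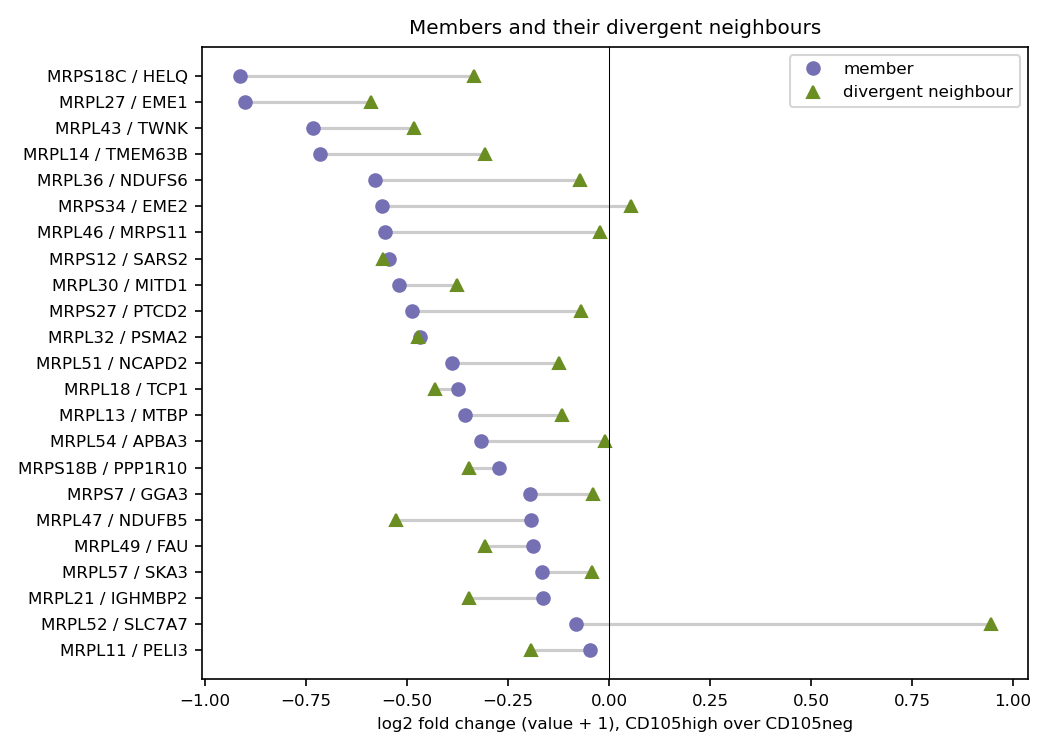
Log2 fold change (value + 1) of CD105high over CD105neg for members and for the neighbour that starts within 1000 bases on the other strand, where the neighbour reached 1 FPKM. MRPS11 and MRPL46 are drawn once, with MRPL46 as the member. All but 2 of the 22 neighbours that are not members lie below 0, and SLC7A7 is the neighbour farthest above it, at 0.94.

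Of the proteins of the mitochondrial ribosome, 5 are encoded by genes with other names. All 5 were lower in CD105high than in CD105neg, as were 61.0% of all genes. Their log2 fold changes lay between -0.41 and -0.16. DAP3, a GTP-binding protein of the small subunit, stood at 36.6 in CD105high against 48.8 FPKM in CD105neg (-0.41), with 33.3 FPKM in CD105low. PTCD3, a pentatricopeptide protein, stood at 28.5 in CD105high against 36.9 FPKM in CD105neg (-0.36). AURKAIP1 lay at -0.26, GADD45GIP1 at -0.24 and CHCHD1 at -0.16. None of the 5 was 1.5-fold apart in any comparison.

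Genes that act with the mitochondrial ribosome were set beside the members, using lists set by function. Of 28 genes for assembly of the mitochondrial ribosome, 1 passed the 1.5-fold limit as lower in CD105high, METTL17, a methyltransferase-like factor, at 12.5 in CD105high against 20.4 FPKM in CD105neg. The 2 that were higher were MTERF4, at 10.6 in CD105high against 5.37 FPKM in CD105neg, and GTPBP10, at 4.65 in CD105high against 2.58 FPKM in CD105neg. The shares called, 3.57% lower and 7.14% higher, lie near those of all genes (6.88% and 5.65%). The median of the list was -0.29, with 25 of 28 below 0, against 61.0% of all genes. Of 12 translation factors, 1 (8.33%, near the 6.88% of all genes) was lower and none higher (median -0.28): TUFM, the elongation factor that delivers tRNA, at 73.3 in CD105high against 114.8 FPKM in CD105neg. None of the 21 genes for mitochondrial tRNA charging was 1.5-fold apart, and their median, -0.13, lay nearest to that of all genes. Among 20 genes for maintenance, transcription and RNA stability of mitochondrial DNA, 3 (15%) were lower and 1 (5%) higher, against 6.88% and 5.65% of all genes (median -0.25). SLIRP, which protects mitochondrial mRNAs, stood at 92.0 in CD105high against 154.0 FPKM in CD105neg, and TOP1MT, the mitochondrial topoisomerase, at 5.71 in CD105high against 9.91 FPKM in CD105neg. The gene with the higher level was KIAA0391, a subunit of mitochondrial RNase P, at 15.7 in CD105high against 9.45 FPKM in CD105neg, with 72.2% of its sampled sequence shared.

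The mRNAs that the mitochondrial ribosome translates were lower as well, and no protein was measured. All 13 mRNAs encoded by mitochondrial DNA lay below 0 for CD105high against CD105neg, as did 61.0% of all genes. They lay between -0.59 and -0.24, with a median of -0.36. Some stood low: levels ran from 2.41 (MT-ATP6) to 185.6 FPKM (MT-CO1) in CD105neg and from 1.72 to 144.3 FPKM in CD105high. At least 1.5-fold lower was 1 of 13 (7.69%, near the 6.88% of all genes), MT-ND4L, at 17.8 in CD105high against 27.4 FPKM in CD105neg. The 13 mRNAs summed to 386 in CD105high against 511 FPKM in CD105neg, with 477 FPKM in CD105low. Much of this sum is uncertain, since MT-CO1, MT-CO2 and MT-CO3, which make up 301.1 FPKM of it in CD105high and 394 FPKM in CD105neg, share 52.6%, 31.2% and 26.3% of their sampled sequence with other genes. Of the nuclear genes of the respiratory chain, 3 of 37 of complex I, 1 of 23 of complexes II to IV and 2 of 15 of ATP synthase passed the 1.5-fold limit downwards, and none upwards. Together this is 6 of 75 (8%), near the 6.88% of all genes. Their medians were -0.30, -0.37 and -0.40, and NDUFS8, an iron-sulphur subunit of complex I, stood lowest of them at 27.5 in CD105high against 48.8 FPKM in CD105neg (-0.81). Of 27 genes of protein import into mitochondria, 5 (18.5%) were lower, against 6.88% of all genes, and none higher, against 5.65% (median -0.38). The lowest was TOMM7 of the outer membrane pore at 52.9 in CD105high against 89.6 FPKM in CD105neg. TOMM6, another of the 5, stood at 1.31 in CD105high against 2.80 FPKM in CD105neg. Its value is uncertain, since 100% of its sampled sequence is shared. None of the 17 enzymes of the citric acid cycle was 1.5-fold apart (median -0.19). The medians of all 11 mitochondrial lists lay below that of all genes tested for CD105high against CD105neg.

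The cytosolic ribosome was set beside the mitochondrial one. Of its 79 protein genes, 20 (25.3%) were lower in CD105high than in CD105neg by 1.5-fold or more, against 6.88% of all genes. None was higher by as much, against 5.65%, and 78 lay below 0, as did 61.0% of all genes. Their median was -0.49, against -0.35 for the mitochondrial members. Their levels were higher by far: they summed to 30818 in CD105high against 43818 FPKM in CD105neg, which is 11.6% of all values in CD105high and 15.1% in CD105neg. For CD105low against CD105neg the median of the cytosolic genes was -0.30 and that of the mitochondrial members -0.17, and for CD105high against CD105low the medians were -0.19 and -0.16.

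**Figure D5:**
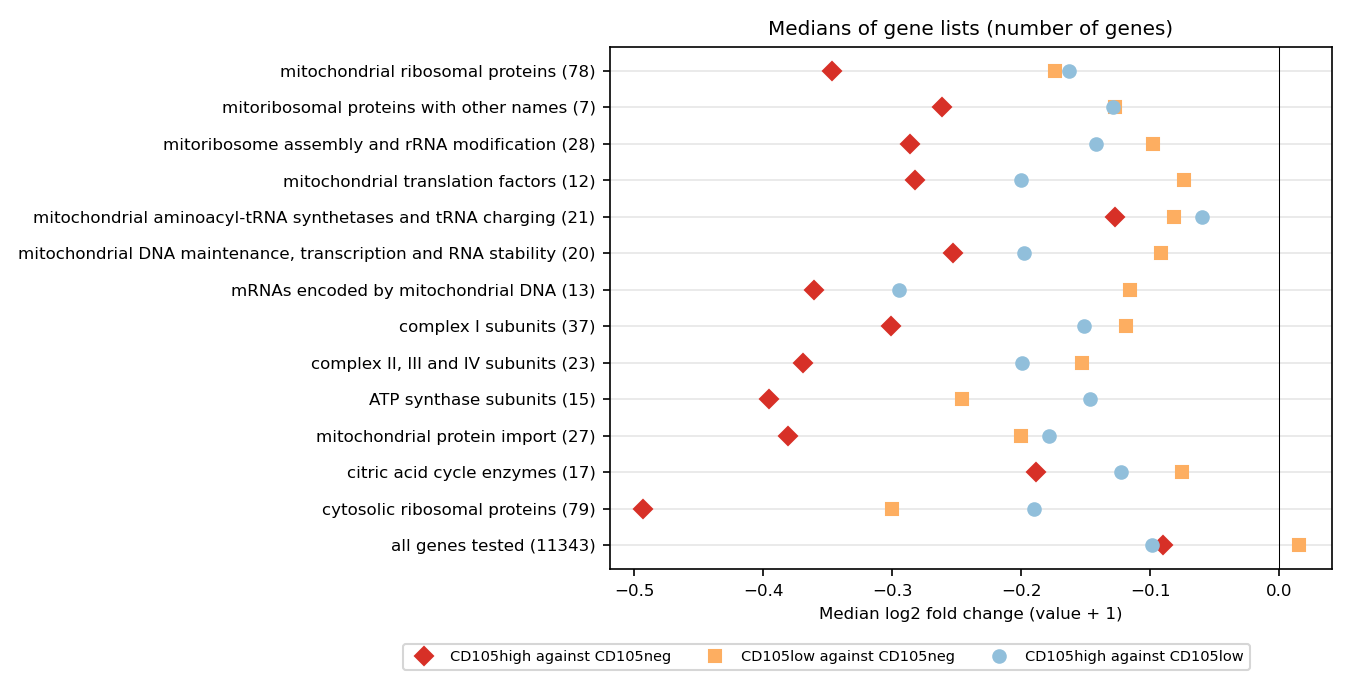
Median log2 fold change (value + 1) of the members, of the mitochondrial lists, of the cytosolic ribosomal proteins and of all genes tested, for the 3 pairs of libraries, with the number of genes in brackets. The 7 genes with other names include MRPL57 and MRPL58, which are members too. For CD105high against CD105neg the medians run from -0.49 for cytosolic ribosomal proteins to -0.09 for all genes, with the 78 members at -0.35.

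Markers of other cells and some genes of dividing cells differed between the same libraries. All 6 endothelial markers were at least 1.5-fold higher in CD105high than in CD105neg, against 5.65% of all genes tested. The 12 erythroid and megakaryocyte markers summed to 69.8, 26.2 and 13.2 FPKM in CD105neg, CD105low and CD105high. Of the 12, 11 were lower in CD105high than in CD105neg, as were 61.0% of all genes. HBZ, HBA1 and HBA2 were at 0 in CD105high and CD105low and under 1 FPKM in CD105neg. The 4 leukocyte markers summed to 3.94, 2.84 and 1.39 FPKM in the same order, of which SPN made up 3.42, 2.55 and 1.19 FPKM. The other 3, PTPRC, CD33 and CD14, were under 1 FPKM in every library, and CD14 was not lower in CD105high than in CD105neg. PTPRC was at 0.004 FPKM in CD105neg and at 0 in CD105low and CD105high. The 5 pluripotent markers analysed summed to 72.7, 61.6 and 53.6 FPKM in CD105neg, CD105low and CD105high, of which DNMT3B made up 58.7, 50.3 and 43.4 FPKM. All 5 were lower in CD105high than in CD105neg, as were 61.0% of all genes. L1TD1 lay at -0.04, and 1 of the 5, CDH1, was at least 1.5-fold lower, against 6.88% of all genes. The 6 mesenchymal and mural markers summed to 154.2, 134.7 and 97.4 FPKM. Of the 6, 4 were lower in CD105high than in CD105neg, as were 61.0% of all genes. Of 17 proliferation genes, 5 (29.4%) were lower in CD105high than in CD105neg by 1.5-fold or more, against 6.88% of all genes. None was higher by as much, against 5.65%. The median was -0.35, and 12 of 17 lay below 0, as did 61.0% of all genes. Among the 5 lower ones were GINS2 (7.43 FPKM in CD105high, 14.2 FPKM in CD105neg) and MCM2 (26.5 FPKM in CD105high, 45.7 FPKM in CD105neg) of DNA replication. The 5 above 0 were AURKA (0.37), CDK1 (0.30), MKI67 (0.18), TOP2A (0.15) and PLK1 (0.05), which act in or mark cell division. CCNB1 (-0.16) and BUB1 (-0.21), which also act in cell division, lay below 0. The list summed to 949.9, 950.6 and 809 FPKM in CD105neg, CD105low and CD105high. The part of any of these in the lower values of the members was not tested.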

How the data were processed

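RNA-seq was run on 3 sorted populations, 1 library each. Per the labels' protocols, a TruSeq kit was used on 2 ug of total RNA. The kit does not mark strand, so reads of overlapping genes on either strand cannot be told apart. BWA, Bowtie, RSEM and hg19 are named in the submitters' processing notes, with no role or version. Annotation and filters: not given in the sources used here. The deposited values are treated as FPKM. The file headers name no unit; values are not whole and sum to less than 1000000.

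Computed here, with Python 3.11.15, pandas 2.3.3 and numpy 2.4.6: log2 fold changes on the value plus a pseudocount of 1 (low genes then show too small a change), counts of genes at least 1.5-fold apart or at or below -0.32, and medians, beside the same over all 11343 genes that reached 1 FPKM in any library. The functions were tested on simulated data. Shared sequence is the share of 50-base pieces, taken every 40 bases from GENCODE release 29 transcripts, that occur in another gene. That annotation is on another build than hg19, so it was used only for lengths, sequence and neighbours. Promoters come from RefSeq. Members, lists and motifs were chosen with earlier results of these data known. Named members were the extremes of each comparison and of level, and 12 fixed genes; for other lists, up to 3 genes with the largest absolute change of CD105high against CD105neg. Neighbouring and overlapping genes, MT-ATP6, MT-CO1 to MT-CO3, CCNB1, BUB1 and the 5 proliferation genes above 0 were named after their values were seen. Alternatives were the pseudocount, the filter, the fold, scaling, centring and members without shared sequence. The protein sequences planned for the MRPS18 genes were not used here. TFAM, SDHD, POU5F1 and NANOG were not analysed here.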

Additional observations from a re-analysis of the deposited data

How the results depend on the processing

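The direction of the members' medians was the same under every alternative tried, for all members and for each subunit, in all 3 comparisons. For CD105high against CD105neg, scaling each library to a sum of 1000000 gave a median of -0.24 for all members, -0.22 for the large and -0.34 for the small subunit, and a pseudocount of 5 gave -0.31 for the small subunit. Counts of called members depended on the settings. Except at the limit of -0.32, the shares of all genes called under these alternatives are not set beside the counts. Those counts show only how the calls moved. For CD105high against CD105neg, a pseudocount of 0.1 left 13 members and one of 5 left 5 members lower by 1.5-fold, against 8. For CD105low against CD105neg, the 1 called member, MRPS18C, was lost (0 members) with a pseudocount of 5, without members that share 10% or more of their sequence, and without those that share as much or whose exons overlap another gene as much on either strand, an alternative added after seeing the data. For CD105high against CD105low, 1 member in place of 3 was called with a pseudocount of 5, after centring on all genes and after scaling to 1000000. With a fold of 2, 0 members were called in each comparison. With a limit of -0.32 on the log2 scale there were 44, 15 and 10 (56.4%, 19.2% and 12.8%), against 22.8%, 9.50% and 11.2% of all genes. Centring, another alternative added after seeing the data, gave 29, 17 and 4 members at this limit (37.2%, 21.8% and 5.13%). The shares of all genes were then 15.3%, 10.4% and 5.62%. No called member reversed its direction. The number of reads is not known, so the counting error of each value was not estimated. No paired analysis was possible because each group has 1 library.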

Other observations

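Several members overlap genes whose values can be set beside theirs. NIPSNAP2, which overlaps MRPS17 on the same strand, stood at 17.1, 17.5 and 9.95 FPKM in CD105neg, CD105low and CD105high, while MRPS17 stood at 10.1, 8.44 and 7.59 FPKM. SLC5A3, an inositol transporter gene that overlaps MRPS6, stood at 17.9, 16.05 and 12.4 FPKM in the same order. CCDC142, which overlaps MRPL53, stood at 4.90, 8.15 and 3.53 FPKM in the same order, while MRPL53 stood at 16.2, 15.6 and 16.4 FPKM. AC139530.2, the gene that shares sequence with MRPL12, was listed at 0 in all 3 libraries, and the read-through gene URGCP-MRPS24 was below 1 FPKM in all 3.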
